A study of Mus musculus with 6 samples.

Results

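The regions described here are the centromere-proximal ends of the 19 mouse autosomes, taken as the first 2 Mb of assembled sequence in the mm9 genome build, from 3 Mb to 5 Mb on each chromosome. Members were chosen by position alone. They are the 1 kb tiles of this stretch with 3 or more CpGs in the table and 10 or more methylation calls in each of the 6 samples, strands merged, and 3 stretches on chromosomes 9, 12 and 11 (39, 2 and 80 kb long) were left out. Of 330110 tiles that passed these minimums in the whole table, 4313 (1.31%) were members, on all 19 autosomes. Another 324719 tested tiles lay on the rest of the autosomes and served as the background. Within the first 2 Mb, 30026 tiles held at least 1 CpG of the table, so 14.4% could be tested, against 16.4% on the rest of the autosomes.

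DNA methylation was read by bisulfite sequencing of the whole genome, where bisulfite turns unmethylated cytosines into bases that sequence as thymine, in male germ cells sorted from testes of single pups at postnatal day 2.5 by their Oct4-GFP reporter. All pups came from crosses between Tex15+/- parents on a mixed strain background. The study asked how loss of Tex15 changes DNA methylation in these cells. The groups were Tex15+/+ (pups Tex15WT 8 and 9), Tex15+/- (Tex15HT 7 and 18) and Tex15-/- (Tex15KO 3 and 16), with n = 2 pups in each, and Tex15+/+ and Tex15+/- pups together are called the 4 controls. Every group carried the reporter. The level of a region is its share of methylated calls in percent, and differences between levels are given in percentage points. The calls show methylation and not transcripts, so the deletion itself was not checked in them.

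Mouse autosomes carry the centromere at one end, with arrays of minor and major satellite repeats that the assembly represents as a gap. The first assembled bases therefore border pericentric heterochromatin, and they often hold segmental duplications and copies of repeats that reads cannot be assigned to with certainty. In male germ cells DNA methylation is erased before birth and set again in prospermatogonia, and TEX15 is known as a germ-cell protein that is needed for piRNA-directed methylation of young retrotransposons.

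Promoters in these ends were located by matching the spacing of the CpGs in RefSeq's promoter sequences (build GRCm38.p6, 250 bases before to 50 after the start) to the CpGs of the table, with 9 or more CpGs matched on the same chromosome and no other CpG of the table inside. Of 541 promoters tried, 172 of 151 genes on 14 chromosomes were placed, and 1 further promoter was placed on another chromosome and left out. The 3 stretches left out of the members were not removed for this placing. The promoter counts thus include Eif4enif1, which lay in the left-out stretch of chromosome 11. The 250 bases before the start are shown for 3 of these genes, 5′ to 3′ on the gene's strand, with the CpGs that had calls in the table in capitals. Tiam2, which encodes a guanine nucleotide exchange factor for Rac, is shown because it held the only methylated promoter of this set. It was placed at chr17:3396957-3397206 in mm9, plus strand. Suv39h2, which encodes a histone H3 lysine methyltransferase of pericentric heterochromatin, is shown as an unmethylated promoter rich in CpGs, and was placed at chr2:3392259-3392508, minus strand. Hormad2, which encodes a meiotic chromosome axis protein, is shown as an unmethylated promoter with few CpGs, and was placed at chr11:4341086-4341335, minus strand.
Tiam2: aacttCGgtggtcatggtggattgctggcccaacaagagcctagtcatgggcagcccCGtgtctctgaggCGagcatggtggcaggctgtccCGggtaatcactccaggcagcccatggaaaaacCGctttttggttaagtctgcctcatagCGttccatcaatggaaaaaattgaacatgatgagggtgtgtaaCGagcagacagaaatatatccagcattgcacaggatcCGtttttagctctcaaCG
Suv39h2: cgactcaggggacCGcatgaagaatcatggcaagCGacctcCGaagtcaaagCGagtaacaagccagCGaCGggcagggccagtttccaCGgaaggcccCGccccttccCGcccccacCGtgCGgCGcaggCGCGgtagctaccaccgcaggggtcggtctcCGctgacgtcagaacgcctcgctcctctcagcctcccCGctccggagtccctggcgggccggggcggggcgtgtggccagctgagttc
Hormad2: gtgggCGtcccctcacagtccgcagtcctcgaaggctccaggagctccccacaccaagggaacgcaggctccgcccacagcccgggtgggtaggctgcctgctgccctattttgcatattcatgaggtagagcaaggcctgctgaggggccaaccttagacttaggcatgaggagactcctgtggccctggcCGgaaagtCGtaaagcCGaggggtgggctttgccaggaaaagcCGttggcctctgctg
The Tiam2 stretch held 9 CpGs, all of them with calls. The Suv39h2 stretch held 27 CpGs, 16 of them with calls, and the Hormad2 stretch held 10, 5 of them with calls.

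The methylation of most of these promoters differed little between the samples. The Tiam2 promoter was methylated at 96.7 and 88.5% in Tex15WT 8 and 9, at 90.5 and 90.3% in Tex15HT 7 and 18, and at 100 and 94.6% in Tex15KO 3 and 16, over its whole 300 bases and from 21 to 101 calls per sample. The Suv39h2 promoter was at 2.74% in Tex15WT 8 and at 0% in the other 5 samples, from 28 to 156 calls. The Hormad2 promoter was at 0, 3.13, 4.55, 2.33 and 0% in Tex15WT 8 and 9, Tex15HT 7 and 18 and Tex15KO 16, and had no call in Tex15KO 3. Among the 137 genes whose promoter had 10 or more calls in the 4 controls and Tex15KO 16, 133 were under 10% in every control, and all 133 were also under 10% in Tex15KO 16. They include both promoters of Meig1, needed for sperm formation, Kmt5b and Kmt5c, which encode histone H4 lysine methyltransferases, and Morc2a, which encodes an ATPase of heterochromatin silencing. Of 87 of these genes that also had 10 or more calls in Tex15KO 3, 85 were under 10% there. Patz1, which encodes a zinc finger transcription factor, stood out in that sample only. One of its promoters, at chr11:3188884-3189183, read 52.4% in Tex15KO 3 and 0% in the other 5 samples, although Tex15WT 9 had only 7 calls there, and its other placed promoter was at 0% in all 6. Il11, which encodes a cytokine, and Mtfp1, which encodes a mitochondrial fission factor, were at 30 and 25% in Tex15KO 3 and at no more than 9.38% elsewhere. The Frmd4a promoter varied among the controls too, at 26.3, 9.38, 2.38 and 0%, and read 39.0 and 9.09% in Tex15KO 3 and 16. Patz1, Il11, Mtfp1 and Frmd4a were named after their values were seen. The matching favours promoters with many CpGs, so these counts do not cover the other promoters of the ends.

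The libraries differed in depth and in how the calls were spread. The table held 27495658 to 52935635 calls per sample, and the member tiles held a median of 22 to 34 calls per sample, within 1 call of the rest of the autosomes in all 6. Tex15KO 3 stood apart. It had no call at 74.4% of the table's cytosines, where the other 5 samples had none at 1.71 to 10.2%, and a median of 8 calls where it had any, against 2 to 4. Among member tiles, 64.2% were at exactly 0 or 100% in that sample, and 13.5 to 28.5% were so in the other 5. Results that rest on this sample are given with and without it.

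Pooled over all member tiles, the level of the first 2 Mb was 54.6 and 52.9% in Tex15WT 8 and 9, 54.7 and 53.2% in Tex15HT 7 and 18, and 58.6 and 52.4% in Tex15KO 3 and 16. The 2 knockout samples lay on either side of all 4 controls, Tex15KO 3 above and Tex15KO 16 below. The means were 53.8% ± 1.17 (SD, n = 2) in Tex15WT, 53.9% ± 1.002 in Tex15HT and 55.5% ± 4.42 in Tex15KO. Tex15KO exceeded Tex15WT by 1.71 points (exact two-sided permutation p = 1) and Tex15HT by 1.54 points (exact permutation p = 1). Tex15HT exceeded Tex15WT by 0.169 points (exact permutation p = 0.667), and Tex15KO exceeded the 4 controls by 1.63 points (exact permutation p = 0.533). All 4 had an adjusted p of 1 over the 5 exact permutation tests by genotype. With 2 pups against 2 the smallest possible p is 0.333, and with 2 against 4 it is 0.0667. Without Tex15KO 3 the differences turned to -1.41, -1.58 and -1.50 points against Tex15WT, Tex15HT and the controls. When each tile weighed the same, the 6 samples read 71.3, 69.9, 71.6, 71.2, 71.7 and 70.3% in the same order, and the knockout differed from the controls by 0.0447 points (exact permutation p = 1).

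The ends were methylated below the rest of the same autosomes when tiles weighed the same. In the controls the tile mean was 71.0% ± 0.768 (SD, n = 4) in the first 2 Mb and 76.8% ± 1.19 on the rest. The within-sample difference was -5.92 and -5.25 points in Tex15WT 8 and 9, -6.29 and -5.91 in Tex15HT 7 and 18, and -6.06 and -6.67 in Tex15KO 3 and 16, so the ends were lower in all 6 samples (mean -6.02 points, exact sign-flip permutation p = 0.0313, two-sided, adjusted p = 0.0313 over 4 comparisons by position). This is the smallest p that 6 samples can give. All 6 read the same tiles, so the sign-flip p measures how far the pups agree on these tiles. It does not measure the spread over chromosome ends, here or in the later comparisons by position. Summing calls gave the opposite sign, 1.68 points higher in the ends (exact sign-flip permutation p = 0.0938, adjusted p = 0.0938 over the 4). On the rest of the autosomes, 18 tiles with over 10000 calls in at least 1 sample held 26.7 to 47.4% of all calls there, whereas the deepest member tile had 6146 calls in its deepest sample. Without these 18 tiles the sum of calls also put the ends lower (mean difference -9.43 points, exact sign-flip permutation p = 0.0313).

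The neighbouring 2 Mb of the same chromosomes, which held 4291 tested tiles, were more methylated than the ends under both ways of weighing. The first 2 Mb lay below them in every sample when calls were summed, with differences from -4.53 to -3.69 points (mean -3.92, exact sign-flip permutation p = 0.0313, adjusted p = 0.0417), and the mean difference was -5.31 points when tiles weighed the same (exact sign-flip permutation p = 0.0313). Against the last 2 Mb at the other end of the chromosomes, with 4733 tiles, the sign depended on the weighing. The centromere-proximal ends were higher by 2.28 points by summed calls and lower by tile mean (difference -1.43 points), each with an exact sign-flip permutation p of 0.0313. By tile mean the last 2 Mb were also below the rest of the autosomes, at 72.3% against 76.8% in the controls. By summed calls these levels were 51.6 and 51.3%.

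By tile mean, all 3 classes of CpG density were lower in the ends. Tiles with 3 to 9 CpGs averaged 81.5% in the controls in the first 2 Mb and 85.4% on the rest. Tiles with 10 to 19 CpGs averaged 59.2% against 67.7%, and tiles with 20 or more CpGs, a density typical of CpG islands, averaged 4.91% against 7.80%. By summed calls the order turned in the first 2 classes, with 78.7% against 78.02% and 55.5% against 46.2%, and held in the densest, with 5.94% against 6.91%. Such dense tiles made up 7.19% of the members and 5.43% of the rest. Sorted by the pooled level of the 4 controls, 15.3% of the members were under 20% methylated, 20.2% were at 20 to 80% and 64.6% were over 80%. On the rest of the autosomes these shares were 11.3, 14.7 and 74.0%. These shares are descriptions.

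The level changed with distance from 3 Mb, most of all in the first 0.1 Mb. This stretch held 157 tested tiles on 17 chromosomes, with a tile mean of 60.8 and 58.6% in Tex15WT 8 and 9, 61.7 and 60.0% in Tex15HT 7 and 18, and 56.95 and 58.1% in Tex15KO 3 and 16. Both knockout samples lay below all 4 controls there by tile mean, with a mean difference of -2.72 points. By summed calls they did not, with 56.1 and 53.9% in the knockout, 54.1 to 56.5% in the controls and a difference of -0.177 points. Over the bins from 0 to 0.5, 0.5 to 1, 1 to 1.5 and 1.5 to 2 Mb the control mean was 68.0, 72.1, 73.4 and 70.6%. The first 0.5 Mb lay below the last 0.5 Mb by tile mean in all 6 samples (mean difference -2.96 points, exact sign-flip permutation p = 0.0313), and still did so with the first 0.1 Mb left out (-1.46 points, exact sign-flip permutation p = 0.0313). These p-values measure agreement between the pups and not the spread over chromosomes. At single chromosomes the control mean of the near 0.5 Mb was below that of the far 0.5 Mb at 12 of 19 ends. Chromosome 14 counts among these on 1 near and 1 far tile only, at 0.781 and 81.9%.

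**Figure D1:**
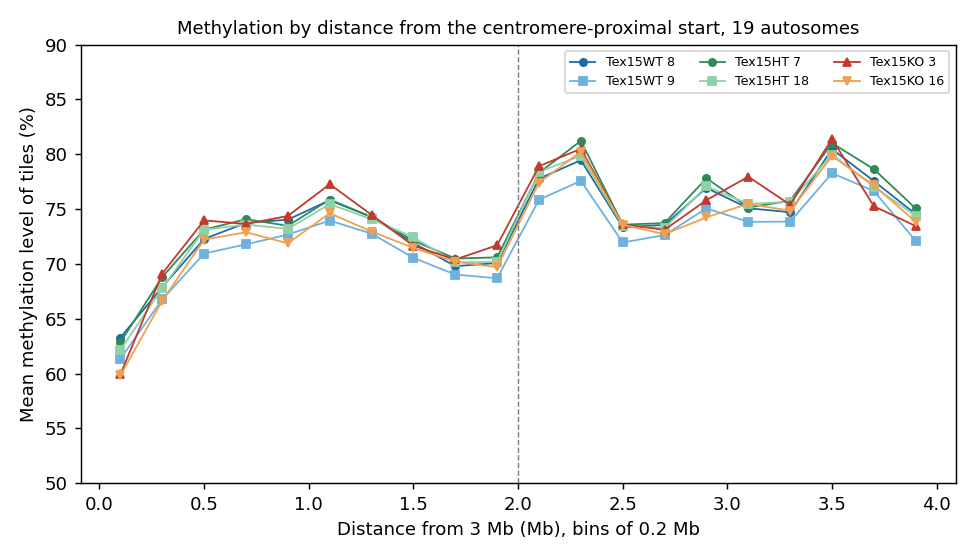
Mean methylation level of the tested tiles (vertical axis, percent, from 50 to 90) in bins of 0.2 Mb by distance from 3 Mb (horizontal axis), 1 line per sample, all 19 autosomes pooled; the dashed line marks the end of the first 2 Mb. All 6 samples read from 59.8 to 63.3% in the first bin and from 74.0 to 77.3% in the bin from 1 to 1.2 Mb.

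By summed calls the same contrast was -3.75 points (exact sign-flip permutation p = 0.0313, adjusted p = 0.0417), and it rested on 1 tile. The tile at chr6:3151001-3152000 held 35 CpGs and 2579 to 6146 calls per sample, and its levels were 13.3 and 19.8% in Tex15WT 8 and 9, 13.5 and 15.3% in Tex15HT 7 and 18, and 11.2 and 3.84% in Tex15KO 3 and 16. Both knockout samples were below all controls in it, and the difference did not pass the test (edgeR adjusted p = 0.181 for Tex15KO against the controls). Without this tile the contrast was -0.183 points (exact sign-flip permutation p = 0.625), and among tiles with 30 or more calls in every sample it was 16.8 points (exact sign-flip permutation p = 0.0313). It also held 26.0 to 42.1% of all calls of the chromosome 6 end. The next deepest member tiles lay close together on chromosome 11, at chr11:3027001-3028000 and chr11:3029001-3030000, with 494 to 1380 calls per sample. The first read 65.0, 66.1, 63.9 and 68.5% in the controls and 63.4 and 60.5% in Tex15KO 3 and 16, so both knockout samples were below all controls, and the second read 76.1 to 79.4% in the controls and 84.0 and 78.2% in the knockout. Neither passed edgeR's test (adjusted p = 1 against the controls in both).

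The tiles nearest to the gap differed from the others in the spread of their levels as well as in the mean. Of the 157 tiles in the first 0.1 Mb, 108 (68.8%) were partly methylated, at 20 to 80% in the pooled controls. From 0.1 to 0.5 Mb the share was 28.6%, in the following 0.5 Mb bins it was 17.1, 15.4 and 14.6%, and on the rest of the autosomes it was 14.7%. Read in each sample on its own, the share in the first 0.1 Mb was 68.2% in both Tex15WT samples, 63.7 and 66.9% in Tex15HT 7 and 18, 41.4% in Tex15KO 3 and 68.2% in Tex15KO 16, so partial methylation was present in single pups. Only 5.73% of these tiles were under 20% and 25.5% were over 80%. Of 11 chromosomes with 5 or more tiles in this stretch, 8 had most of them at 20 to 80%. On chromosome 18 it was 25 of 26 tiles, on chromosome 11 it was 19 of 21, and on chromosome 17 it was 13 of 17. The exceptions were chromosome 2 with 2 of 16, chromosome 10 with 4 of 17 and chromosome 13 with 2 of 9. Depth moved with this pattern, as the median was 4.43 calls per CpG and sample in the first 0.1 Mb and 3.50 on the rest. Among tiles with under 5 calls per CpG and sample the shares were 58.5% of 94 tiles in the first 0.1 Mb and 14.4% on the rest. Whether reads from several copies met in these tiles was not tested.

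**Figure D2:**
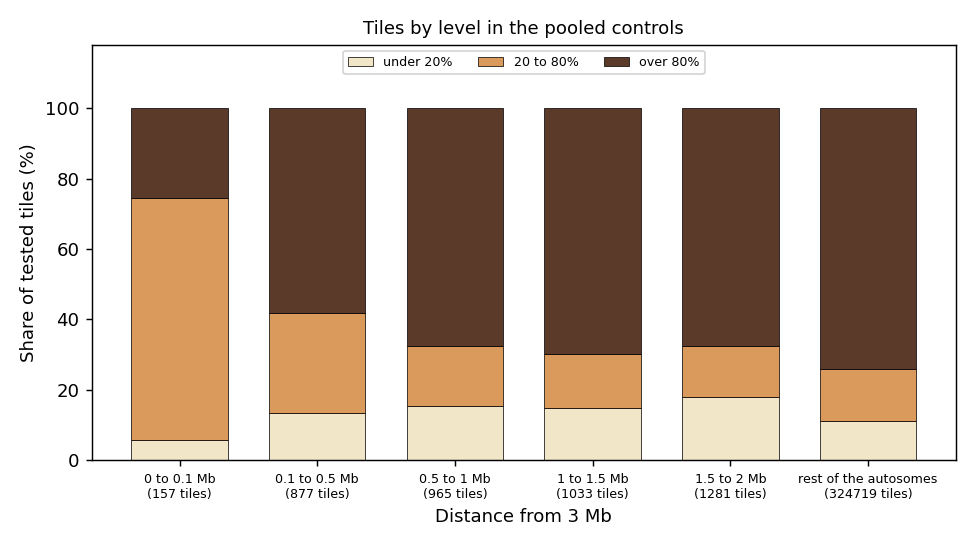
Share of tested tiles (vertical axis, percent) with a pooled control level under 20%, from 20 to 80% and over 80%, by distance from 3 Mb, with the rest of the autosomes at the right and the number of tiles under each bar. The middle class takes 68.8% of the first bar, 28.6% of the second and 14.6 to 17.1% of the other bars.

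The level ranged widely over the 19 ends. By summed calls the lowest control means were 38.2% ± 0.927 (SD, n = 4) on chromosome 7, 40.5% ± 1.98 on chromosome 6 and 43.2% ± 0.943 on chromosome 8. The highest were 67.6% ± 2.09 on chromosome 2, 67.2% ± 1.68 on chromosome 10 and 64.7% ± 1.31 on chromosome 5. Chromosome 7 read 39.5, 37.7, 37.5, 37.8, 41.4 and 37.1% in the order Tex15WT 8 and 9, Tex15HT 7 and 18, Tex15KO 3 and 16, so its whole range stayed below that of chromosome 2, which ran from 64.7 to 70.4%. The end of chromosome 6 read 35.0 to 50.6%, and 55.8 to 64.5% without its deepest tile. Tiles with 20 or more CpGs made up 13.5% of the tiles on chromosomes 7 and 8, 2.67% on chromosome 6 and 3.88% on chromosome 2. Chromosome 14 had only 3 tested tiles, and its values carry little weight.

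**Figure D3:**
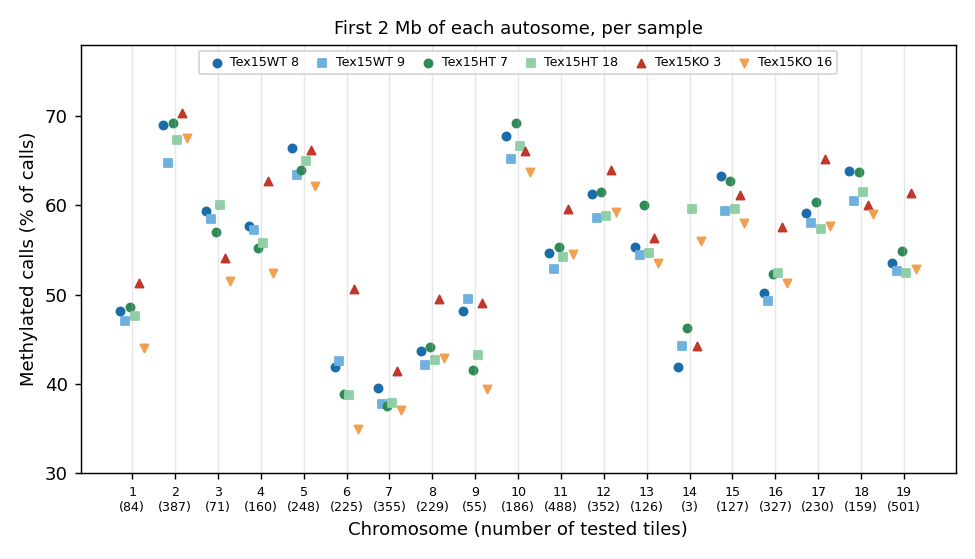
Level of the first 2 Mb of each autosome by summed calls (vertical axis, percent, from 30 to 78), 1 point per sample, with the number of tested tiles in brackets under each chromosome number. Points of 1 chromosome mostly sit closer together than the chromosomes do, and Tex15KO 3 is above all 4 controls at 11 of 19 ends.

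Compared with the rest of its own chromosome by tile mean, the end was lower in the controls on 16 of 19 chromosomes, and on 15 it was lower in all 6 samples. The control difference was -24.0 points on chromosome 9 (55 tiles), -18.8 on chromosome 7 (355 tiles) and -17.6 on chromosome 3 (71 tiles). The ends of chromosomes 2 and 5 went the other way in all 6 samples, by 1.26 and 3.66 points. The 2 Mb windows of each chromosome were also ranked by control level, here from summed calls. By that rank the first window was below the median on 16 chromosomes and among the lowest 25% on 11.

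No chromosome end was called different in the knockout. Of the 19 first windows, edgeR's quasi-likelihood test called 0 against Tex15WT and 0 against the controls at an adjusted p under 0.05. limma's adjusted calls were 0 in both. With no adjustment edgeR had 0 ends past that value, and limma had 1 (5.26%), lower against the controls. The unadjusted share over all windows was not counted, so these unadjusted counts have no background. For adjusted calls the background in edgeR was 1.07% of all 1217 windows called lower against Tex15WT. It was 1.89% called lower against the controls, and 0% called higher in either. In limma it was 2.22% lower and 0.0822% higher against Tex15WT, and 2.71% lower and 0.0822% higher against the controls. The largest negative differences from the controls were -5.93 points on chromosome 3, -2.87 on chromosome 18 and -2.28 on chromosome 10. The largest positive ones were 3.72 on chromosome 19, 3.40 on chromosome 16 and 3.07 on chromosome 8. Without Tex15KO 3 the differences on chromosomes 19 and 8 were -0.531 and -0.198 points. Chromosome 3 read 59.4, 58.5, 57.1 and 60.0% in the controls and 54.1 and 51.6% in Tex15KO 3 and 16, and it was 1 of only 2 ends where both knockout samples lay below all controls. The other was chromosome 18, with 60.5 to 63.9% in the controls and 60.0 and 59.0% in the knockout. At 0 ends did both lie above all controls. Tex15KO 3 was above all controls at 11 ends and Tex15KO 16 below all controls at 11 ends. Without Tex15KO 16, edgeR called 6 ends against the controls and 3 against Tex15WT, all higher, which is 31.6 and 15.8% of the ends beside 27.3 and 25.7% of all windows called in the same fits.

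Whether the knockout's shift in the ends differed from that on the rest of the autosomes could not be decided by the exact permutation test. With 2 pups against 4 its smallest possible p is 0.0667, which the summed calls reached. The difference between the first 2 Mb and the rest was smaller in Tex15KO than in the controls by summed calls (-2.53 points, exact permutation p = 0.0667, adjusted p = 0.333 over the 5 tests by genotype). Both knockout samples, at -0.705 and 0.696 points in Tex15KO 3 and 16, lay below all 4 controls, at 1.14 to 3.92 points. The knockout's shift was -0.524 points by tile mean (exact permutation p = 0.333) and 0.0750 points without the 18 deep tiles of the rest (exact permutation p = 0.733). As a mean over chromosomes it was -1.42 points, and reweighted by CpG number it was -1.805. In the first 1 Mb it was -2.485 points (exact permutation p = 0.0667 in each of these). With 30 calls it was -0.875 points and with the 3 stretches kept -1.97 (exact permutation p = 0.6 and 0.4). Without the top 0.1% of coverage it was -0.038 points (exact permutation p = 0.933).

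At single tiles, edgeR called 0 of the 4313 members in Tex15KO against Tex15WT at an adjusted p under 0.05, against a background of 0.00939% of all tested tiles called lower and 0.000303% called higher. The fit gave no weight to a tile's own spread between pups, as the spread was estimated across tiles (infinite prior degrees of freedom). Without adjustment, p was under 0.05 for 81 lower members (1.88%) and 58 higher ones (1.34%), beside 1.26 and 1.45% of all tested tiles. Against Tex15HT edgeR called 0, with a background of 0.00485% lower and 0.000909% higher. Its unadjusted calls there were 73 lower and 48 higher members (1.69 and 1.11%), beside 1.27 and 0.939% of all tiles. Between Tex15HT and Tex15WT it called 0, with a background of 0.00121% lower and 0% higher. Unadjusted, 12 members were lower and 13 higher (0.278 and 0.301%), beside 0.188 and 0.35% of all tiles. Against the 4 controls it called 0, with a background of 0.0379% lower and 0.000606% higher. Unadjusted, 102 members were lower and 66 higher (2.36 and 1.53%), beside 1.73 and 1.4% of all tiles. The lowest adjusted p of a member was 0.0659, for Tex15KO against the controls, in the tile at chr13:4981001-4982000. The alternative tool limma called 7 lower and 0 higher against Tex15WT (0.162 and 0%, beside 0.0963 and 0.000303% of all tested tiles). It called 2 lower and 1 higher against Tex15HT (0.0464 and 0.0232%, beside 0.0612 and 0.00151%). It called 20 lower and 1 higher against the controls (0.464 and 0.0232%, beside 0.271 and 0.00576%). It called 0 between Tex15HT and Tex15WT, with a background of 0% either way, and unadjusted it had 24 lower and 39 higher members (0.556 and 0.904%), beside 0.442 and 1.12% of all tiles. Leaving out Tex15KO 16 moved edgeR's counts to 227 against Tex15WT, 242 against Tex15HT and 321 against the controls. These are 5.26, 5.61 and 7.44% of the members, beside 4.78, 4.78 and 6.7% of all tested tiles in the same fits. Leaving out Tex15KO 3 moved them to 7, 3 and 10 (0.162, 0.0696 and 0.232%, beside 0.115, 0.0924 and 0.195% of all tested tiles). With 1 pup left in an arm, its spread was assumed to be that of the other groups.

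A count without a model found a set of tiles, called losses here, where both knockout samples were far below all 4 controls. In 32 member tiles (0.742%), on 13 chromosomes, both Tex15KO samples were more than 30 points below every control. The background was 0.456% of all tested tiles, and 0.444% (1442 tiles) on the rest of the autosomes. In the opposite direction 3 members (0.0696%) had both knockout samples more than 30 points above every control, beside 0.0194% of all tested tiles. No test was made of these shares, and the share changed with the minimum of calls. Among tiles with 30 or more calls in every sample, 1 of 586 members (0.171%) was lower, against 0.512% on the rest. Judged on Tex15KO 16 alone, 54 members met this cut (1.25%, beside 0.640% on the rest), and judged on Tex15KO 3 alone, 255 did (5.91%, beside 5.38% on the rest).

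In these 32 tiles the mean level was 85.2 and 82.3% in Tex15WT 8 and 9, 81.6 and 81.3% in Tex15HT 7 and 18, and 10.1 and 20.9% in Tex15KO 3 and 16. Both heterozygous means were below both wild-type means, and tile by tile the heterozygous mean was below the wild-type mean in 17 of the 32. Tex15KO 3 was lower than Tex15KO 16 in 26 tiles, and 13 tiles were at 0% in Tex15KO 3 and 1 in Tex15KO 16. Since the tiles were chosen on these levels, the means describe the set only. The tiles held a median of 9 CpGs. By density, 19 had 3 to 9 CpGs (0.626% of such members), 13 had 10 to 19 (1.34%) and 0 had 20 or more. On the rest of the autosomes the shares of these classes were 0.384, 0.688 and 0.125%. By distance, 10 lay from 0 to 0.5 Mb, 10 from 0.5 to 1 Mb, 3 from 1 to 1.5 Mb and 9 from 1.5 to 2 Mb.

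**Figure D4:**
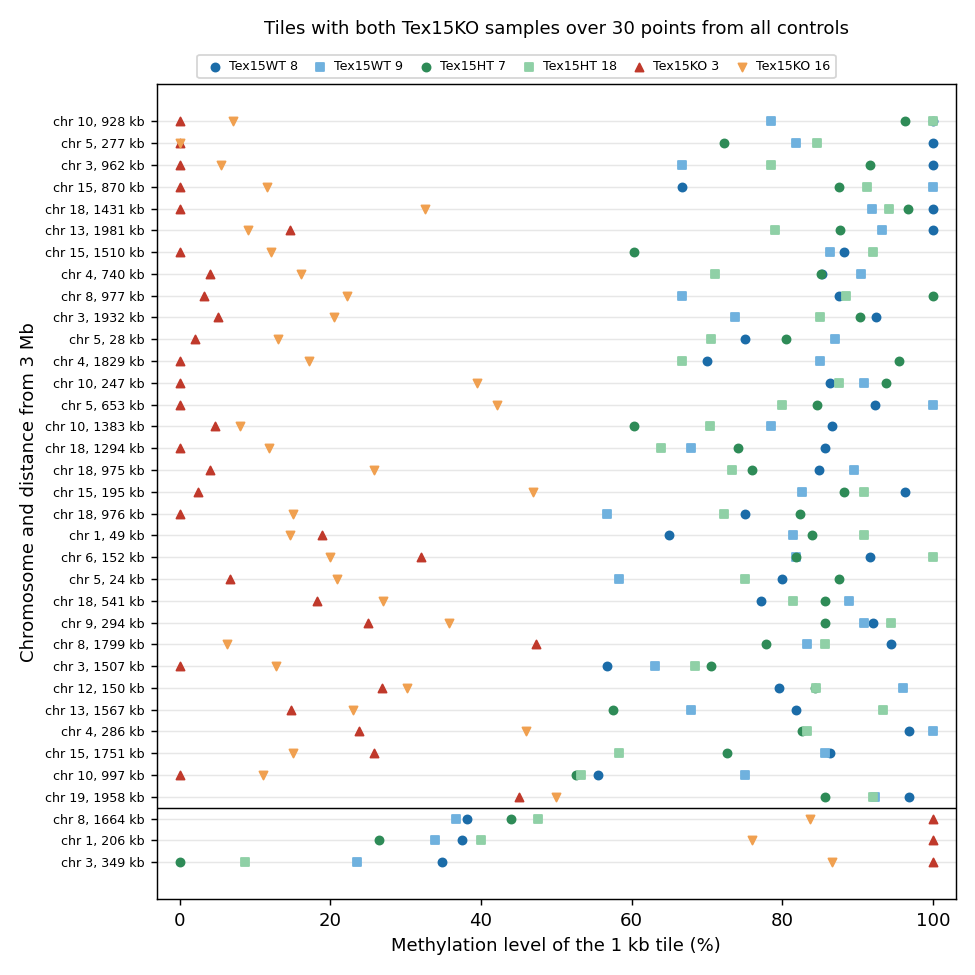
Methylation level (horizontal axis, percent) of the 32 member tiles with both Tex15KO samples over 30 points below all 4 controls, above the black line, and of the 3 tiles with both above, below it. Each line is 1 tile, named by chromosome and distance from 3 Mb and sorted by the difference from the controls, with 1 point per sample; in the upper set Tex15KO 3 spans 0 to 47.3%, Tex15KO 16 spans 0 to 50%, and no control is under 52.6%.

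The largest loss was at chr10:3928001-3929000, 928 kb from the start, with 100 and 78.6% in Tex15WT 8 and 9, 96.3 and 100% in Tex15HT 7 and 18, and 0 and 7.14% in Tex15KO 3 and 16, from 10 to 27 calls per sample. It did not pass edgeR's test (adjusted p = 0.998 against Tex15WT and 0.135 against the controls). At chr5:3277001-3278000 both knockout samples were at 0%, from 11 and 33 calls, and the controls were at 100, 81.8, 72.2 and 84.6%. The tile at chr3:3962001-3963000 read 100, 66.7, 91.7 and 78.6% in the controls and 0 and 5.56% in the knockout. In all 3 tiles the gap between the knockout and the controls exceeded the range of the controls. They are the largest of the chosen losses, so a wide gap was set by the choice. Against the controls, edgeR's adjusted p was 0.135, 0.0727 and 0.0976 in the same order. limma's adjusted p was 0.00664, 0.00591 and 0.0106.

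The tile at chr13:4981001-4982000, with 11 CpGs and 21 to 77 calls, had the lowest adjusted p of a member in edgeR. Its adjusted p against the controls was 0.0659 in edgeR and 0.00822 in limma. It read 100 and 93.2% in Tex15WT 8 and 9, 87.7 and 79.1% in Tex15HT 7 and 18, and 14.7 and 9.09% in Tex15KO 3 and 16. It was also the only one of the 32 with a run of CpG distances that recurs in the table. Taking 5 consecutive distances between CpGs as a pattern and counting patterns found at 10 or more places, 662 patterns recurred, and 55 members (1.28%) held one, beside 1.27% on the rest of the autosomes. This tile held 3 of them, with distances of 13, 4, 21, 12 and 4 bp found at 16 places, 15, 4, 12, 21 and 4 bp at 12 places, and 21, 12, 4, 15 and 5 bp at 11 places. Of the 1442 lower tiles on the rest, 111 (7.70%) held a recurring pattern. The repeat family behind these patterns was not analysed here.

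The other large losses had the same layout. The tile at chr15:3870001-3871000 read 66.7 to 100% in the controls and 0 and 11.6% in the knockout, and chr18:4431001-4432000 read 91.9 to 100% and 0 and 32.6%. At chr15:4510001-4511000 the controls read 60.4 to 92.1% and the knockout 0 and 12.1%. The tile at chr4:3740001-3741000 read 71.1 to 90.5% in the controls and 4 and 16.1% in the knockout. At chr8:3977001-3978000 the values were 66.7 to 100% and 3.23 and 22.2%, and at chr3:4932001-4933000 they were 73.7 to 92.5% and 5.10 and 20.5%. In each of these the lower knockout sample was Tex15KO 3, and Tex15KO 16 kept up to 32.6%. A pair of adjoining tiles, chr18:3975001-3976000 and chr18:3976001-3977000, both belonged to the 32. They read 73.3 to 89.5% and 56.7 to 82.4% in the controls, 4 and 0% in Tex15KO 3, and 25.8 and 15% in Tex15KO 16. This pair was named after its values were seen.

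In the other direction, chr3:3349001-3350000 read 34.8, 23.5, 0 and 8.70% in the controls and 100 and 86.7% in Tex15KO 3 and 16. The tile at chr1:3206001-3207000 read 26.5 to 40% in the controls and 100 and 76.0% in the knockout, and chr8:4664001-4665000 read 36.7 to 47.6% and 100 and 83.6%. All 3 were at exactly 100% in Tex15KO 3, and in none did the difference pass edgeR's test against the controls (adjusted p of 0.335 or above). limma's adjusted p against the controls was 0.0134, 0.1105 and 0.1248 in the same order.

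The losses were unevenly spread over the chromosome ends. Chromosome 18 had 5, chromosomes 5, 10 and 15 had 4 each, chromosomes 3 and 4 had 3 each, chromosomes 8 and 13 had 2 each, and chromosomes 1, 6, 9, 12 and 19 had 1 each. As shares of tested tiles this was 4.23% on chromosome 3, 3.15% on chromosome 15, 3.14% on chromosome 18 and 2.15% on chromosome 10. The ends of chromosomes 7 and 11, with 355 and 488 tiles, had none, and neither did chromosomes 2, 14, 16 and 17. At 10 ends the share was above that of the rest of the same chromosome. On the 14 chromosomes with a placed promoter, 682 of 3653 member tiles (18.7%) lay within 10 kb of a placed gene start, and 0 of the 16 lost tiles there did. Their median distance to the nearest placed start was 294 kb, against 49.3 kb for all member tiles there, and the shortest was 18.9 kb. A loss needs methylated controls, and the promoters of 133 of 137 placed genes were under 10% in every control. Tiles at these starts could thus rarely be losses. No comparison was made with only the tiles methylated in the controls, so these distances do not show that losses avoid promoters. Whether the lost tiles lie in exons or introns was not analysed here.

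Tiles chosen in 1 knockout pup were also read in pups that took no part in the choice. Of the members, 47 were more than 40 points lower in Tex15KO 16 than in both Tex15WT 8 and Tex15HT 7. In the samples not used, these tiles averaged 31.5% ± 35.9 (SD over tiles) in Tex15KO 3, 78.5% ± 14.9 in Tex15WT 9 and 74.2% ± 18.99 in Tex15HT 18, where all member tiles averaged 71.7, 69.9 and 71.2%. Under 50% were 32 of the 47 in Tex15KO 3, 2 in Tex15WT 9 and 5 in Tex15HT 18. The knockout pup left out of the choice was thus low in most of these tiles, and the control pups left out were not. Chosen the other way, in Tex15KO 3 against Tex15WT 9 and Tex15HT 18, 208 members qualified. They averaged 66.9% ± 28.2 in Tex15KO 16, against 77.1% ± 21.7 in Tex15WT 8 and 78.9% ± 21.1 in Tex15HT 7, and 61, 23 and 24 of them were under 50%. All member tiles averaged 70.3, 71.3 and 71.6% in the same order. Most tiles chosen in Tex15KO 3 were thus not low in Tex15KO 16. On the rest of the autosomes, tiles chosen in Tex15KO 16 averaged 27.7% in Tex15KO 3, beside the 31.5% in the ends. Those chosen in Tex15KO 3 averaged 76.2% in Tex15KO 16, where all tiles of the rest averaged 77.0%. The tiles of 1 pup share its library, so these means carry no test.

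The tiles nearest to the gap on the lowest and highest chromosomes varied between pups of 1 genotype. On chromosome 7 the first tested tile lay 71 kb from the start, at chr7:3071001-3072000, and read 92.3, 20, 70 and 85.7% in the controls and 100 and 54.5% in the knockout. On chromosome 6 the first tile, chr6:3000001-3001000, read 57.1, 27.8, 68.4 and 40% in the controls and 100 and 47.1% in the knockout. On chromosome 8 it was chr8:3086001-3087000, with 66.7 to 93.8% in the controls and 100 and 81.8% in the knockout. The first tile of chromosome 5, chr5:3000001-3001000, read 14.3 to 40% in the controls and 100 and 66.7% in the knockout, with 3 CpGs and 12 to 24 calls. Both knockout samples were above all controls in it, and the difference did not pass edgeR's test (unadjusted p = 0.0287 and adjusted p = 0.998 against Tex15WT). The first tile of chromosome 10, chr10:3001001-3002000, read 68.2 to 94.7% in the controls and 100 and 75.0% in the knockout. That of chromosome 2, chr2:3003001-3004000, read 76.7 to 88.2% in the controls, 0% in Tex15KO 3 and 91.1% in Tex15KO 16. Tex15KO 3 was thus at 0 or 100% in all 6 of these tiles.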

How the data were processed

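DNA methylation calls of 6 samples were read from 1 table. The authors deposited it as whole-number counts of coverage, C calls and T calls per cytosine, per the file headers. Coverage equalled C plus T calls in every entry, and 0 columns of per-sample values were unused. The submitters' processing notes name BSMAP, Bismark, methylKit and mm9; their roles, their versions and any removal of duplicate reads are not given in these sources. Per the labels' protocols, about 10 ng of DNA with 0.5% lambda DNA was used per library.

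The table held 10025464 cytosines. CpG strands were merged and calls were summed in 1 kb tiles with at least 3 CpGs and 10 calls in each sample. Tiles and 2 Mb windows of the whole table were tested with edgeR 4.0.16 (glmQLFit and glmQLFTest; methylated and unmethylated counts, an intercept per sample, methylation by genotype, all 6 samples in 1 fit, Benjamini-Hochberg adjustment over all 330110 tiles, adjusted p under 0.05) in R 4.3.3, after a test on simulated data. The simulated samples all had the same spread, so that test did not cover a sample like Tex15KO 3. limma 3.58.1 on the log2 ratio with a pseudocount of 1 was the alternative. Levels were compared with exact permutation or sign-flip tests over samples in Python 3.11.15. Calls are not molecules, so depth covers counting error only. Each sample is a separate pup, per the labels.

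The members, lists and tests were chosen with earlier results of these data known. Tiles named were any called by edgeR, the 10 with the largest loss and up to 5 with the largest gain past 30 points, the 3 with most calls, and the first tested tile of the 3 lowest and 3 highest chromosomes. Chromosomes named were those extremes and the 3 largest differences each way. The promoter placing, the 0.1 Mb classes by level and the tiles chosen in 1 pup were added after seeing the data. Alternatives were 30 calls, tile means, means over chromosomes, no top 0.1% of coverage, the 3 stretches kept, reweighting by CpG number, 1 Mb ends, 20 points, limma, and each sample left out.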

Additional observations from a re-analysis of the deposited data

How the results depend on the processing

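No paired analysis was made, because the groups share no replicate numbers. These numbers do not show which pups shared a litter. With 2 pups per group, the exact tests of genotype levels could not pass 0.05. The knockout minus Tex15HT difference was -0.373 by tile mean. With 30 calls the knockout differences were -1.42 (Tex15WT), -1.58 (Tex15HT) and -1.50 (controls). Tex15HT minus Tex15WT was -2.24 with the 3 stretches kept and -0.220 in the first 1 Mb. The first 2 Mb minus the rest was -6.02 by tile mean, -9.13 with 30 calls, -8.40 without the top coverage, -6.12 as a mean over chromosomes, -13.9 with the stretches kept and 2.17 reweighted, and, in alternatives chosen after seeing the data, 2.81 without the deepest member tile and -9.43 without the 18 deep tiles, where the knockout shift was 0.0750. Against the last 2 Mb it was -1.43 by tile mean, 5.31 with 30 calls, 1.16 as a mean over chromosomes and -13.3 with the stretches kept. Against the next 2 Mb it was -6.96 without the top coverage and -19.5 with the stretches kept. The near minus far contrast was 16.8 with 30 calls, -7.28 as a mean over chromosomes, -17.5 with the stretches kept, -0.299 without the top coverage and -0.183 without the deepest tile. The mean over chromosomes gives full weight to chromosome 14, which had 1 near and 1 far tile. limma called 7, 3 and 21 members (Tex15KO against Tex15WT, Tex15HT and controls), which is 0.162, 0.0696 and 0.487% beside 0.0966, 0.0627 and 0.277% of all tiles. With 30 calls edgeR called 1 against Tex15HT and 2 against the controls (0.171 and 0.341%, beside 0.126 and 0.282%). Losses numbered 50 at 20 points (1.16%, beside 0.640% on the rest) and 1 with 30 calls. Leaving out 1 sample gave -1.41 to 4.83 for Tex15KO minus Tex15WT, -1.58 to 4.66 minus Tex15HT, -1.50 to 4.75 minus the controls and -0.660 to 0.998 for Tex15HT minus Tex15WT. It gave 1.24 to 2.16 against the rest, -4.04 to -3.35 for near minus far, -3.97 to -3.80 against the next 2 Mb and 2.17 to 2.35 against the last; with 5 samples p cannot go below 0.0625, so these calls were lost by construction. The knockout shift was -3.23 to -1.83. Members called ran from 0 to 227, 0 to 242 and 0 to 321 (Tex15WT, Tex15HT, controls), ends from 0 to 6 (controls) and 0 to 3 (Tex15WT), and losses from 33 to 255. The highest counts came without Tex15KO 16, where the same fits called 4.78, 4.78 and 6.7% of all tiles and 27.3 and 25.7% of all windows. With 1 sample left out, the difference between the knockout and the controls changed sign in 4 of 22 named tiles and at 6 of 10 named chromosome ends, for all of them with a knockout sample left out and for 1 in each set also with a control left out. The widest tile range was -81.0 to 10.1, at chr2:3003001-3004000, and the end of chromosome 6 went from 2.29 to -5.55 without Tex15KO 3. Other causes were not tested. Most tiles of Tex15KO 3 are at 0 or 100%, which limits what a single tile shows there.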
